A study of Mus musculus with 12 samples.

Results

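Retinoic acid synthesis, binding and degradation were followed in whole mouse ovaries through 9 genes, picked by symbol from the 24255 genes of the deposited table, in which all 9 were found. They encode the retinaldehyde dehydrogenases (Aldh1a1, Aldh1a2, Aldh1a3), the retinoic acid hydroxylases (Cyp26a1, Cyp26b1), the retinol carrier of plasma and its membrane receptor (Rbp4, Stra6) and the cellular retinoic acid binding proteins (Crabp1, Crabp2). RNA of 7 wild-type libraries (WT) was compared with RNA of 5 libraries from mice whose oocytes had lost the kinase gene Mtor through Gdf9-Cre (CKO). Both groups were C57BL/6 mice aged 6 months, primed for 46 h with 5 IU of equine chorionic gonadotropin (PMSG), which makes follicles grow. The Gdf9 promoter drives Cre in oocytes, so the other ovarian cells of the CKO mice keep Mtor. The labels describe the controls as wild type and give no Cre or floxed allele for them. They list separate samples without animal identities, so the p-values refer only to the spread among these libraries, which may be technical. In whole organs, fewer cells of a type and less RNA per cell cannot be told apart.

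Retinoic acid is made from retinol in a reversible oxidation to retinaldehyde, followed by an irreversible oxidation by the ALDH1A enzymes. It binds nuclear receptors of the RAR family, which pair with RXR on DNA, and it is inactivated by the CYP26 enzymes. In the ovary it is known for the start of meiosis in fetal germ cells and for effects on granulosa and theca cells in the adult. Several genes of the pathway are classical retinoic acid response genes themselves, among them Cyp26a1, Rarb, Dhrs3 and Stra6.

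The best known response element is DR5, a direct repeat of the half-site AGNTCA or GGNTCA (N being G or T) with a spacer of 5 bases. It was searched on both strands, with overlapping matches allowed, in RefSeq windows (GRCm38.p6, the mm10 assembly) from 250 bases before to 50 bases after each annotated start. Windows were found for 7 of the 9 genes (all but Aldh1a3 and Crabp2), and of these genes only Cyp26a1 held a DR5. Among all 32851 windows, 32 or 0.0974% held one. Of the other pathway genes described here, Rarb, a retinoic acid receptor, held one too. Both elements are shown on their own strand because these genes are low in wild-type ovary and are compared between genotypes further on. Capitals mark the half-sites.
Cyp26a1: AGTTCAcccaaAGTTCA
Rarb: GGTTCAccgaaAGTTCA
The Cyp26a1 element lies at chr19:37697776-37697792, at -32 to -16 from the start, on the strand opposite to the gene. The Rarb element lies at chr14:16575513-16575529, at -53 to -37 from 1 of the annotated starts of the gene, on its strand. The Cyp26a1 promoter from position -150 to -11 relative to the start (chr19:37697658-37697797, plus strand) overlaps no exon of GENCODE M21 and reads as follows on the strand of the gene, with the half-sites in capitals.
Cyp26a1 promoter: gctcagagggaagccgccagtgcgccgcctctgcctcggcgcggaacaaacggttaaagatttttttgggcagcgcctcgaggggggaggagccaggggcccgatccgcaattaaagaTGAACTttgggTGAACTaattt
A match of letters is a description of the sequence and shows no binding.

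Values are FPKM, the number of sequenced fragments divided by transcript length and by library depth, so levels can be compared between genes. A CKO minus WT difference is called where limma on log2(FPKM + 1) gives a Benjamini-Hochberg adjusted p under 0.05 over the 13168 genes that reached 1 FPKM in at least 5 of the 12 libraries. On this scale 8.7% of genes were called higher and 7.59% lower in CKO. The column of 1 WT library carries a name that fits the labels of 2 WT samples, so this library has no number and is called the unnumbered WT library. Among the 9 genes, WT replicate 6 stood apart from the other WT libraries in Aldh1a1 and Aldh1a3, and the unnumbered WT library in Stra6. Mtor RNA of the whole ovary was at 3.84 to 5.55 FPKM in WT and 4.63 to 5.88 FPKM in CKO libraries (limma, adjusted p = 0.709), so it does not check the labels.

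Markers of other cell types differed between the genotypes, and their part in the results below was not tested. Of 9 granulosa genes, 9 fell, and their summed level was 3454 to 6234 FPKM in WT and 1322 to 2426 FPKM in CKO, led by Inha and Inhbb. Of 6 oocyte genes tested, 5 fell, with sums of 55.9 to 198 FPKM in WT and 4.80 to 48.5 FPKM in CKO, led by Gdf9 and Zar1. Of 8 stromal genes, 4 rose, with sums of 731 to 987 FPKM and 1719 to 2203 FPKM, led by Dcn and Lum. Of 6 macrophage genes, 4 rose, with sums of 39.3 to 118 FPKM and 182 to 667 FPKM, led by Ctss and Gpnmb. Of 8 surface epithelium and mesothelium genes tested, Krt19 rose, with sums of 78.8 to 183 FPKM and 90.8 to 468 FPKM. Theca and steroidogenic genes, led by Hsd3b1 and Cyp11a1, gave 0 calls among 8 in limma (0 higher and 2 lower at an unadjusted p under 0.05), with sums of 8019 to 20121 FPKM and 7205 to 18334 FPKM. Of 3 oviduct genes tested, Sox17 rose, and the sums were 12.9 to 19.0 FPKM in WT and 16.8 to 286 FPKM in CKO, where Ovgp1 reached 252 FPKM. The high sums were those of CKO replicates 2 and 3 (286 and 103 FPKM), with at most 23.7 FPKM in the other CKO libraries. Of 2 adipocyte genes tested, Fabp4 rose and Plin1 fell, with sums of 10.6 to 17.2 FPKM and 13.7 to 51.4 FPKM, and Cidec and Cfd were listed at 0 in all libraries. The hepatocyte genes, where Ahsg and Apoa2 led, summed to 1.52 to 8.93 FPKM and 3.37 to 10.6 FPKM, the 1 gene tested was not called (0 at an unadjusted p under 0.05), and Alb and Cyp3a11 were listed at 0 in all libraries.

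Aldh1a1 was by far the most abundant of the 9 genes in both genotypes. Mean levels in WT fell from Aldh1a1 at 682 ± 329 FPKM (SD, n = 7) to Aldh1a2 at 34.9 ± 9.57 FPKM and Crabp2 at 9.83 ± 7.03 FPKM. Below these came Aldh1a3 at 5.08 ± 3.10 FPKM, Stra6 at 4.89 ± 3.43 FPKM and Cyp26b1 at 4.46 ± 2.54 FPKM. Rbp4 and Cyp26a1 were listed at 0 in 3 and 4 of the 7 WT libraries, and Crabp1 in all 7. The ranges of Aldh1a1 and Aldh1a2, and of Aldh1a2 and Crabp2, did not overlap in WT, whereas Crabp2, Aldh1a3, Stra6 and Cyp26b1 overlapped with their neighbours in this order. In CKO the order was the same at the top, but Cyp26b1 came next at 11.2 ± 5.50 FPKM (SD, n = 5) and Crabp2 below Stra6 at 3.96 ± 1.82 FPKM. There Cyp26b1, Aldh1a3 and Stra6 overlapped with each other, while Stra6 and Crabp2 did not.

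**Figure D1:**
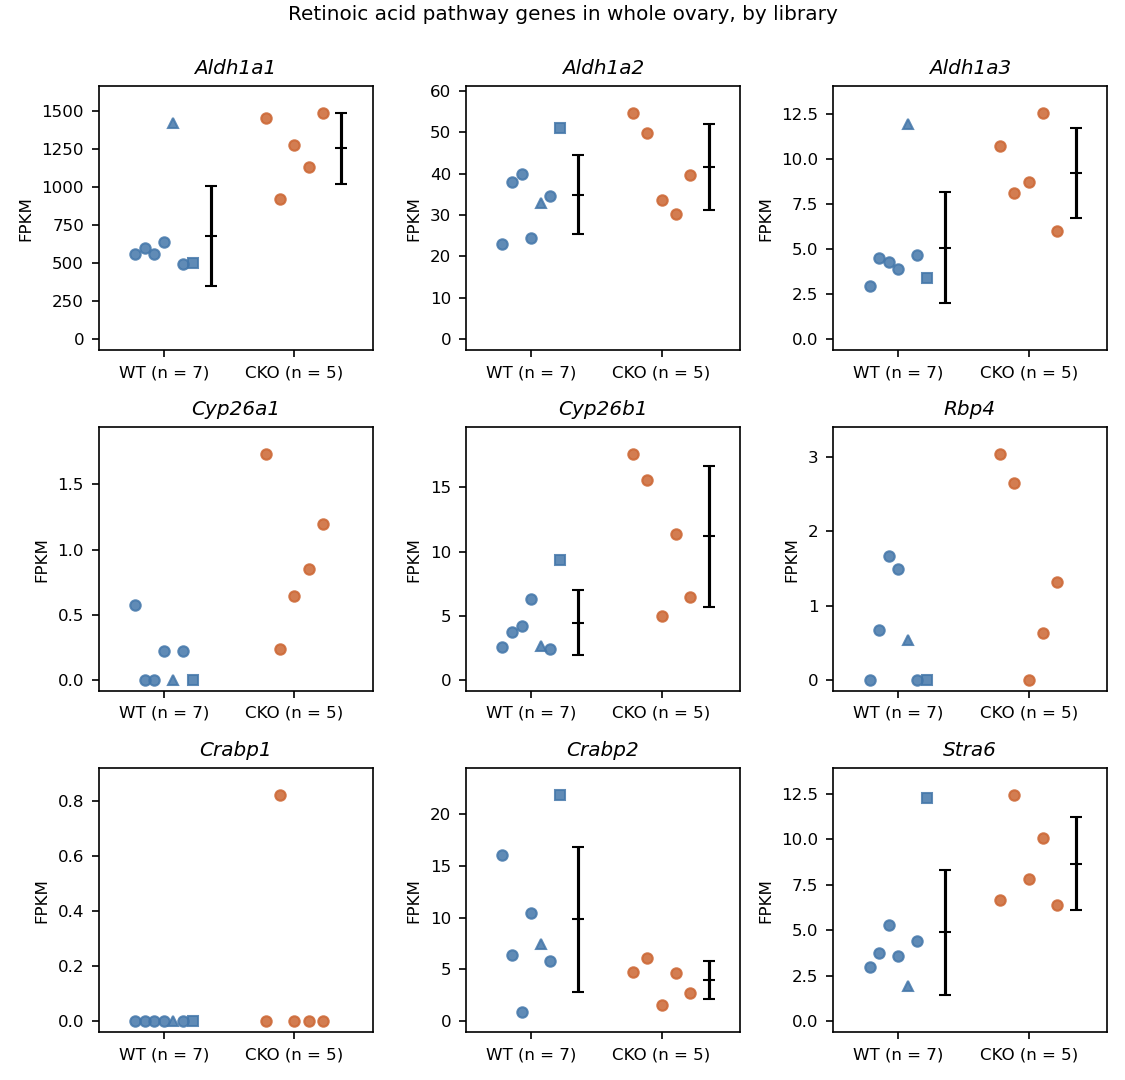
FPKM (y axis, linear) of the 9 genes in each of 7 WT and 5 CKO libraries (points), with mean and SD as a black bar except for the 3 genes listed at 0 in several libraries; the triangle is WT replicate 6 and the square the unnumbered WT library. Aldh1a1, Aldh1a3, Cyp26b1 and Stra6 sit higher in CKO than in most WT libraries, and the triangle reaches the CKO range for Aldh1a1 and Aldh1a3.

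The retinaldehyde dehydrogenase Aldh1a1 rose in CKO ovaries, Aldh1a3 rose by a similar size at a far lower level, and Aldh1a2 was not called. Aldh1a1 (chromosome 19, 20492715 to 20643465, plus strand, mm10) makes retinoic acid and also oxidises other aldehydes. It was at 560.2, 597, 561, 639, 1419.8 and 495 FPKM in WT replicates 1, 2, 3, 4, 6 and 7 while the unnumbered WT library held 504 FPKM. In CKO replicates 1 to 5 it was at 1458, 924, 1280.2, 1132 and 1488 FPKM. All 5 CKO libraries were above 6 of the 7 WT libraries, and WT replicate 6 lay inside the CKO range. The log2 fold change was 0.96 ± 0.24 (SE; limma, adjusted p = 0.0137), and the exact two-sided permutation test over the 792 splits into 7 and 5 libraries gave p = 0.0114. Without WT replicate 6 the log2 fold change was 1.15 (adjusted p = 0.00044). Without CKO replicates 1 and 5 it was 0.79 and the call was lost (adjusted p = 0.0978). These libraries had the highest CKO values of Aldh1a1 itself as well as the highest macrophage sums. Leaving them out therefore lowers the difference in any case, and a link to macrophages was not tested.

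Aldh1a3 (chromosome 7, 66390890 to 66427517, minus strand) encodes another enzyme of the family. It was at 2.93, 4.52, 4.26, 3.88, 11.97 and 4.65 FPKM in WT replicates 1, 2, 3, 4, 6 and 7 and at 3.39 FPKM in the unnumbered library, against 10.7, 8.12, 8.75, 12.6 and 6.02 FPKM in CKO replicates 1 to 5. As for Aldh1a1, WT replicate 6 alone among the WT libraries reached the CKO range. CKO exceeded WT by a log2 fold change of 0.83 ± 0.26 (SE; limma, adjusted p = 0.0414), and the exact permutation p was 0.0227. Leaving out 1 library at a time kept the call in 2 of 12 fits, those without WT replicate 6 (adjusted p = 0.00187) and without CKO replicate 5 (0.0338), and the adjusted p reached 0.102 without CKO replicate 4.

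Aldh1a2 (chromosome 9, 71215789 to 71296243, plus strand), the enzyme that makes most retinoic acid in the embryo, lay between 23.0 and 51.0 FPKM in WT, with 30.1 to 54.6 FPKM in CKO. The genotypes overlapped almost completely. Its log2 fold change was 0.26 ± 0.20 (SE; limma, adjusted p = 0.415; exact permutation p = 0.2727). The highest WT value was in the unnumbered library and the highest CKO value in replicate 1. These libraries had the highest surface epithelium sums of their groups (183 and 468 FPKM). They also had the highest oocyte sums (198 and 48.5 FPKM) and the lowest theca sums (8019 and 7205 FPKM).

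Aldh1a1 held 90.2% to 96.9% of the summed FPKM of the 3 enzymes in WT and 94.1% to 97.0% in CKO. The sum itself lay between 534 and 1465 FPKM in WT, with a median of 605 FPKM, and between 982 and 1534 FPKM in CKO, with a median of 1323 FPKM. The neighbouring paralog Aldh1a7 is 91.6% identical to Aldh1a1 in its coding sequence, against 69.8% for Aldh1a2 and 69.1% for Aldh1a3, so fragments of Aldh1a1 and Aldh1a7 may be divided between the 2 genes. Aldh1a7 was far lower, at 3.18 ± 1.90 FPKM in WT (SD, n = 7) against 4.54 ± 1.76 FPKM in CKO (SD, n = 5), and was not called (limma, adjusted p = 0.308). It too had its highest WT value, 7.04 FPKM, in replicate 6.

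Both retinoic acid hydroxylases were higher in CKO ovaries, Cyp26b1 at a moderate level and Cyp26a1 at a level near the limit of these libraries. Cyp26b1 (chromosome 6, 84571414 to 84593908, minus strand) degrades retinoic acid in the gonads. It was at 2.57, 3.74, 4.21, 6.31, 2.64 and 2.44 FPKM in WT replicates 1, 2, 3, 4, 6 and 7 and at 9.34 FPKM in the unnumbered library. In CKO replicates 1 to 5 it was at 17.6, 15.6, 4.99, 11.4 and 6.48 FPKM. CKO replicates 1, 2 and 4 were above all WT libraries, while replicates 3 and 5 lay within the WT range. The log2 fold change was 1.14 ± 0.33 (SE; limma, adjusted p = 0.029; exact permutation p = 0.0164). Leaving out 1 library at a time lost the call in 7 of 12 fits, with adjusted p up to 0.0813 without CKO replicate 1, and stood at 0.00875 without the unnumbered WT library.

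Cyp26a1 (chromosome 19, 37697798 to 37701536, plus strand), the hydroxylase with the DR5 shown above, did not pass the filter of the fit. It was listed at 0 in WT replicates 2, 3 and 6 and in the unnumbered library, at 0.572 FPKM in WT replicate 1 and at 0.226 and 0.227 FPKM in WT replicates 4 and 7. In CKO replicates 1 to 5 it was at 1.73, 0.238, 0.643, 0.855 and 1.20 FPKM, so no CKO library was listed at 0. CKO replicates 1, 3, 4 and 5 were above all WT libraries, and replicate 2 was below WT replicate 1. The exact permutation test gave p = 0.0025, and leaving out each library in turn gave p between 0.0022 and 0.0108. In a fit without the filter the log2 fold change was 0.72 ± 0.18 (SE; limma, adjusted p = 0.0221).

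Cyp26a1 values rest on very few fragments. The worth of 1 fragment in each library, taken from genes below 1 FPKM, was 0.609 to 1.328 of that in WT replicate 1. Divided by it, Cyp26a1 values were close to whole multiples of their smallest step: 2.01, 1 and 1 in WT replicates 1, 4 and 7, and 9.99, 1, 2.01, 3 and 3.99 in CKO replicates 1 to 5. Such multiples follow fragment numbers and are not corrected for depth, and 1 fragment was worth least (0.609) in CKO replicate 1. If that step is 1 fragment, CKO replicate 2 holds no more Cyp26a1 fragments than WT replicates 4 and 7. The other hydroxylase of the family, Cyp26c1, was listed at 0 in all libraries. Cyp26a1 and Cyp26b1 are 62.2% identical in coding sequence, and Cyp26b1 made up 81.8% to 100% of their summed FPKM in WT and 84.4% to 98.5% in CKO.

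**Figure D2:**
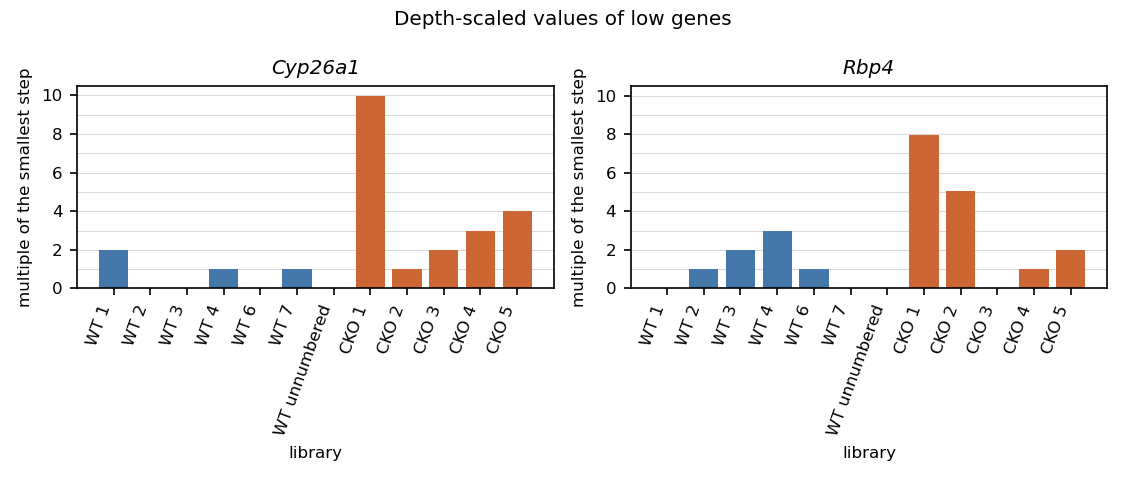
Values of Cyp26a1 and Rbp4 by library (x axis), divided by the worth of 1 fragment, in multiples of the smallest step of each gene (y axis). Steps follow fragment numbers and are not corrected for depth. Blue bars are WT and orange bars CKO, and no bar means listed at 0. Cyp26a1 reaches 9.99 steps in CKO replicate 1, where 1 fragment was worth least, and at most 2.01 in WT (replicate 1). In FPKM these 2 values are 1.73 and 0.572. Rbp4 is listed at 0 in libraries of both genotypes.

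Among the uptake and binding proteins no gene was called, although Stra6 was higher and Crabp2 lower in most CKO libraries. Stra6 (chromosome 9, 58063788 to 58153996, plus strand), the membrane receptor that takes up retinol from its carrier, was at 2.95, 3.75, 5.30, 3.59, 1.94 and 4.41 FPKM in WT replicates 1, 2, 3, 4, 6 and 7. The unnumbered WT library held 12.3 FPKM, and CKO replicates 1 to 5 held 6.66, 12.4, 7.79, 10.1 and 6.40 FPKM. Every CKO library was above every WT library except the unnumbered one. For Stra6 the log2 fold change was 0.83 ± 0.30 (SE; limma, adjusted p = 0.0713; exact permutation p = 0.0354, or 0.0682 on untransformed FPKM). Without the unnumbered WT library it was 1.06 and passed (adjusted p = 0.0044), and it passed in 5 of 24 alternatives in all.

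Crabp2 (chromosome 3, 87948666 to 87953376, plus strand), which carries retinoic acid to its receptors, was at 16.0, 6.42, 0.873, 10.5, 7.41 and 5.80 FPKM in WT replicates 1, 2, 3, 4, 6 and 7 and at 21.8 FPKM in the unnumbered library. In CKO replicates 1 to 5 it was at 4.78, 6.12, 1.51, 4.61 and 2.76 FPKM. WT spread over a far wider range than CKO, and WT replicate 3 was below all CKO libraries. The log2 fold change was -0.89 ± 0.49 (SE; limma, adjusted p = 0.24; exact permutation p = 0.1528). It was -1.26 and passed without WT replicate 3 (adjusted p = 0.0259). Its paralog Crabp1 (chromosome 9, 54764748 to 54773110, plus strand), 70.8% identical in coding sequence, was listed at 0 in 11 of the 12 libraries and at 0.822 FPKM in CKO replicate 2.

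Rbp4 (chromosome 19, 38116629 to 38125281, minus strand), the retinol carrier that liver and fat secrete, reached at most 1.67 FPKM in WT libraries and 3.04 FPKM in CKO libraries, with 0 listed in 3 WT libraries and in CKO replicate 3. The genotypes overlapped, and its highest values, 3.04 and 2.65 FPKM in CKO replicates 1 and 2, corresponded to 7.94 and 5.07 steps. The log2 fold change was 0.57 ± 0.38 (SE; limma, adjusted p = 0.334; exact permutation p = 0.197).

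In all, 7 of the 9 genes passed the filter, 3 were called higher and 0 lower (limma; 4 higher and 0 lower at an unadjusted p under 0.05), beside 8.7% and 7.59% of all genes. The log2 fold change was positive in 6 of the 7, with a median of 0.83 against -0.0054 over all genes tested. In none of the 7 were the genotypes without overlap, beside 4.09% of all genes with CKO above and 3.65% with CKO below WT. Leaving out 1 library left between 1 and 3 of the genes called higher, with Aldh1a1 called in all 12 such fits. Without both CKO replicates 1 and 5 none was called, and without both CKO replicates 2 and 3, 2 were called (Aldh1a1 and Cyp26b1). Without both WT replicate 6 and the unnumbered WT library 4 were called, Stra6 being the fourth. In the comparison the authors deposited, 4 of the 9 genes are higher at q under 0.05 (Aldh1a1, Aldh1a3, Cyp26b1 and Stra6) and 1 is lower (Crabp2), beside 4.44% and 3.64% of all genes in it. The authors' deposited table gives Crabp2 a q of 0.0185 and Stra6 a q of 0.00486, and lists q = 1 for Cyp26a1, Rbp4 and Crabp1. A listed q of 1 can stand for a gene that was not tested, so it shows no absence of a difference.

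**Figure D3:**
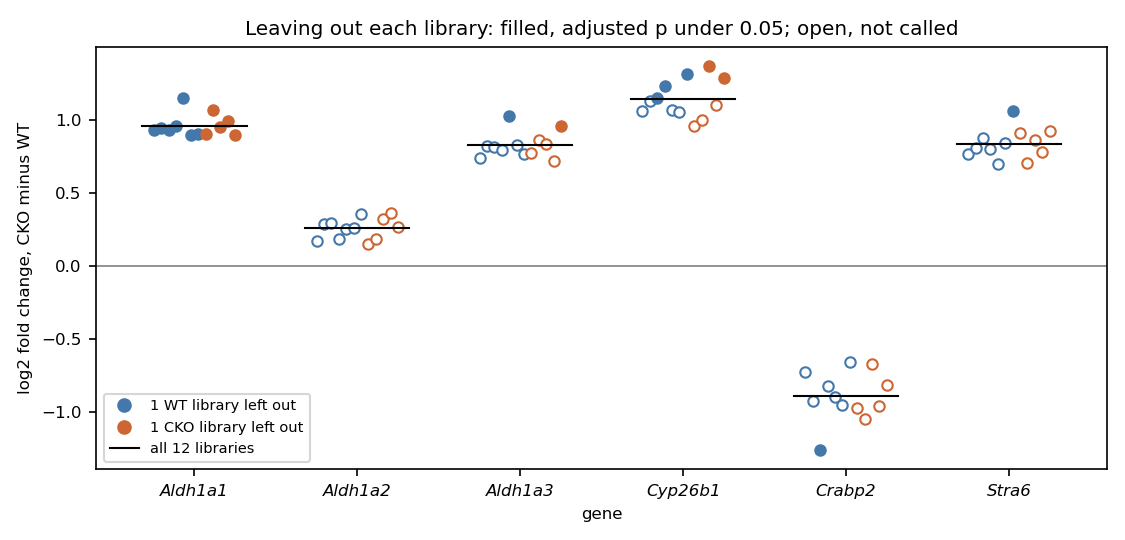
Log2 fold change, CKO minus WT (y axis), of 6 of the genes tested when each of the 12 libraries is left out (points, coloured by the genotype of that library, filled where the adjusted p is under 0.05), with the value from all 12 libraries as a black line. All points of Aldh1a1 are filled, while Aldh1a3, with 2 filled points of 12, depends on which library is left out.

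The other genes of the pathway moved in part. Of 61 further genes listed by role, 59 were in the table and 39 could be tested, of which 10 rose and 3 fell, beside 8.7% and 7.59% of all genes, with a median log2 fold change of 0.16. Of these 39, 7 had all CKO libraries above all WT libraries and 2 all below, beside 4.09% and 3.65% of all genes.

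Among uptake and storage genes, 1 of 5 tested rose and 0 fell (limma; 0 lower at an unadjusted p under 0.05). Lrat, which esterifies retinol for storage, was at 10.6 ± 5.42 FPKM in WT (SD, n = 7) against 35.0 ± 10.6 FPKM in CKO (SD, n = 5), without overlap (log2 fold change 1.70, SE 0.29, limma adjusted p = 0.00163). Stra6l, a relative of Stra6 that was too low to test and was picked after its values were seen, lay between 0 and 0.521 FPKM in WT, with 0.585 to 5.65 FPKM in CKO. The plasma carrier partner Ttr was listed at 0 in all libraries.

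Of 12 genes that interconvert retinol and retinaldehyde, 2 rose and 2 fell. Dhrs3, which reduces retinaldehyde back to retinol, had a median of 52.6 FPKM in WT and 95.7 FPKM in CKO. All CKO libraries, from 81.7 to 140.3 FPKM, were above all WT libraries, from 35.1 to 58.7 FPKM (log2 fold change 1.04, SE 0.15, limma adjusted p = 0.000542). Adh7, an alcohol dehydrogenase that oxidises retinol, was at 4.07, 2.58, 1.90, 3.80, 4.11 and 2.47 FPKM in WT replicates 1, 2, 3, 4, 6 and 7 and at 0.911 FPKM in the unnumbered library. It was at 14.2, 14.6, 62.9, 15.8 and 27.2 FPKM in CKO replicates 1 to 5, again without overlap. Its log2 fold change, 2.69 ± 0.35 (SE; limma, adjusted p = 0.00038), was above those of all other pathway genes tested, and was 2.33 without CKO replicate 3, the lowest value of all alternatives.

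The falls were in Rdh9 and Rdh1, dehydrogenases of the same chromosome 10 cluster (127776386 to 127792697 and 127759721 to 127768297) whose coding sequences are 92.1% identical, so that their fragments may be divided between them. Rdh9 was at 14.04 ± 8.60 FPKM in WT (SD, n = 7) against 3.29 ± 1.48 FPKM in CKO (SD, n = 5), and Rdh1 at 4.09 ± 2.53 FPKM and 1.11 ± 0.54 FPKM. The log2 fold changes were -1.71 (SE 0.34, limma adjusted p = 0.00376) and -1.17 (SE 0.31, adjusted p = 0.0181), and in neither gene did the genotypes overlap. Rdh10, the main retinol dehydrogenase of the embryo, was not called, at 12.6 FPKM and 14.4 FPKM in the means of WT and CKO.

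Of 7 receptors and shuttle proteins tested, 2 rose and 0 fell (limma; 0 lower at an unadjusted p under 0.05). Rarb, whose promoter holds the second DR5 shown above, was at 1.10, 1.56, 1.68, 1.88, 1.89 and 1.71 FPKM in WT replicates 1, 2, 3, 4, 6 and 7 and at 2.75 FPKM in the unnumbered library. It was at 4.61, 3.02, 3.03, 3.06 and 2.85 FPKM in CKO replicates 1 to 5, all above WT (log2 fold change 0.63, SE 0.16, limma adjusted p = 0.0179). Without CKO replicate 1 the log2 fold change was 0.53 and the call was lost (adjusted p = 0.0548). With the replicate number as a block, a fit that rests on replicates 1 to 4 alone, the adjusted p was 0.0782. Fabp5, which binds fatty acids and can carry retinoic acid to PPARD, was at 14.2 ± 3.55 FPKM in WT (SD, n = 7) against 57.0 ± 48.3 FPKM in CKO (SD, n = 5), highest in CKO replicate 1 at 123 FPKM (log2 fold change 1.52, SE 0.43, limma adjusted p = 0.0269). The Fabp5 call was lost without WT replicate 1 (adjusted p = 0.0543), CKO replicate 1 (0.0636) or CKO replicate 5 (0.0744), and the log2 fold change was 0.62 without both CKO replicates 1 and 5 (adjusted p = 0.141). Rara, Rarg, Rxra, Rxrb and Ppard were not called.

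Of 8 coregulators, Nrip1 fell and 0 rose (limma; 0 higher at an unadjusted p under 0.05). Nrip1, a corepressor of nuclear receptors, was at 32.2 ± 7.88 FPKM in WT (SD, n = 7) against 20.6 ± 6.28 FPKM in CKO (SD, n = 5), with a log2 fold change of -0.63 (SE 0.18, limma adjusted p = 0.0277). The Nrip1 call was lost without CKO replicate 1, 3, 4 or 5 (adjusted p = 0.0726, 0.06005, 0.0505 and 0.0743). It was also lost with the replicate number as a block (0.171), where only replicates 1 to 4 bear on the difference. Of 6 further genes known to respond to retinoic acid, 5 rose (Tgm2, Rarres2, Meis1, Meis2 and Hic1, the last named after its values were seen) and 0 fell (limma; 0 lower at an unadjusted p under 0.05), with a median log2 fold change of 0.69. Tgm2, a transglutaminase that macrophages and vessels also express, was at 55.3 ± 10.6 FPKM and 124 ± 49.7 FPKM, with CKO replicate 1 highest at 211 FPKM (log2 fold change 1.10, SE 0.20, adjusted p = 0.00208). Meis1, a homeobox factor, was at 8.82 ± 0.74 FPKM and 14.9 ± 1.18 FPKM without overlap (log2 fold change 0.69, SE 0.097, adjusted p = 0.000529). Rarres2 lost its call without CKO replicate 1 (adjusted p = 0.0576) or CKO replicate 4 (0.0569). The germ cell response gene Stra8 and the hindbrain gene Hoxb1 were listed at 0 in all libraries. Of the 31 genes with a DR5 in any window, 4 were among the genes tested, and 3 of them were called higher, which are Rarb, Blvrb and Tnfsf13b, beside 8.7% of all genes. Rarb had already been described as higher, and 4 genes are too few to set against that share, so nothing is concluded from the count.

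**Figure D4:**
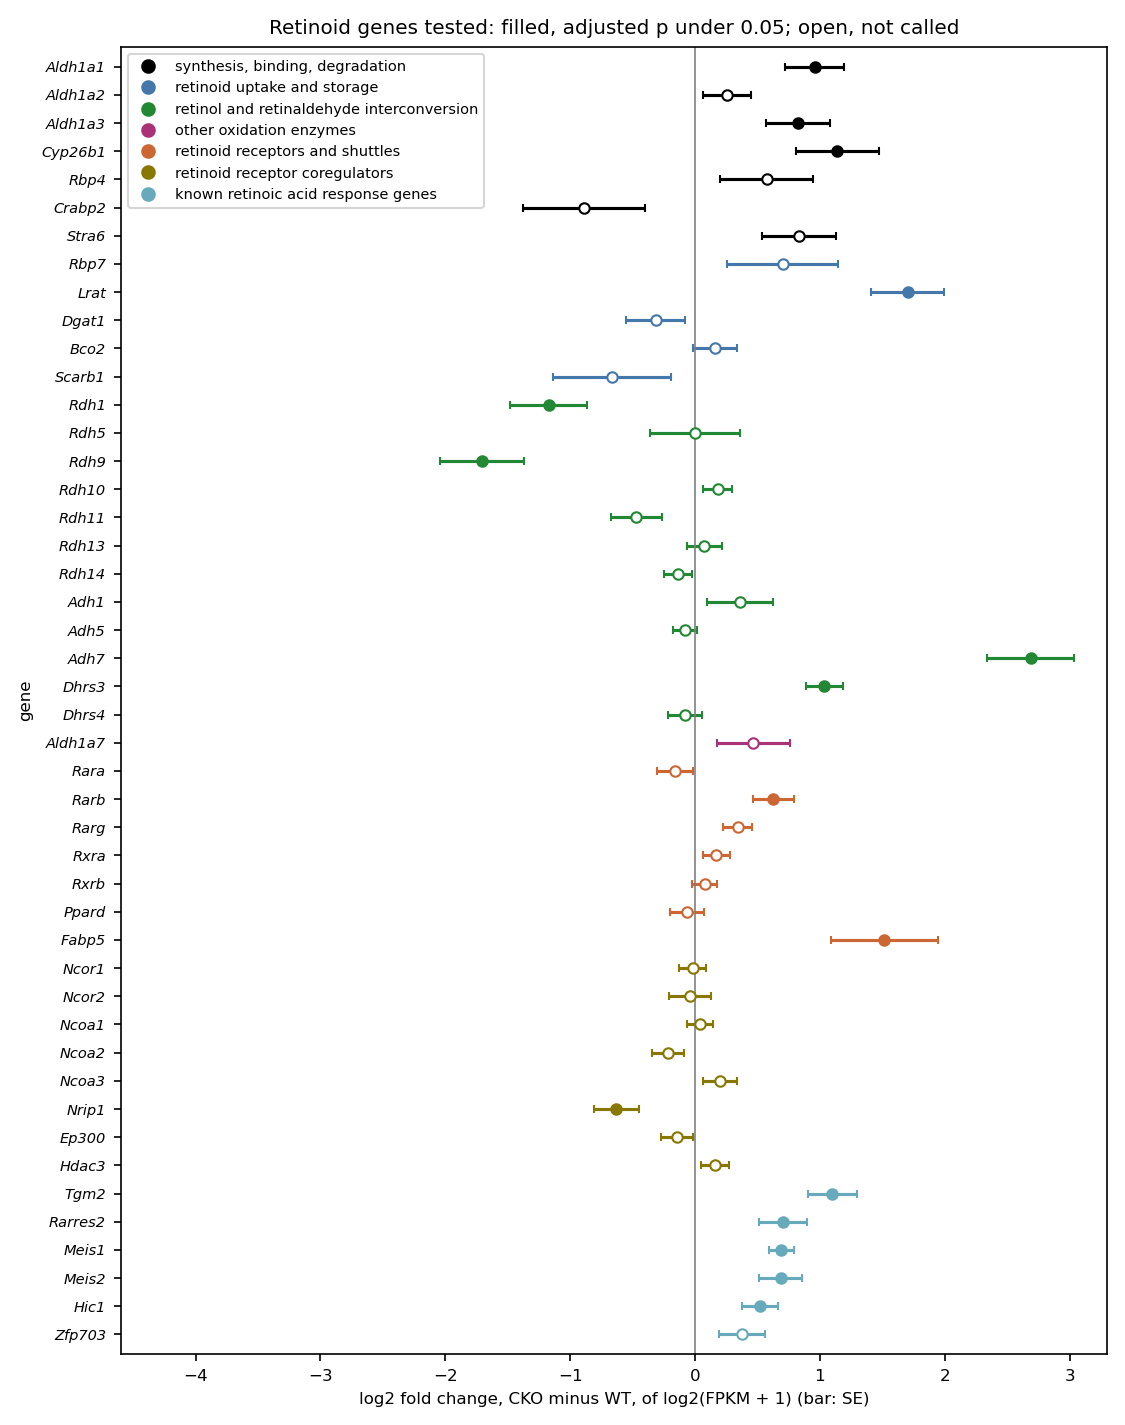
Log2 fold change, CKO minus WT, of log2(FPKM + 1) with its SE (x axis) for the 7 genes of retinoic acid synthesis, binding and degradation that were tested and the 39 other pathway genes tested (y axis), coloured by role. Filled points have an adjusted p under 0.05 over all genes; Adh7 lies farthest right at 2.69 and Rdh9 farthest left at -1.71.

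Within each genotype the genes did not vary as 1 group. After the genotype mean was subtracted, the 12 libraries gave a Pearson correlation of 0.70 between Aldh1a1 and Aldh1a3 (Spearman 0.29), and both were highest among WT libraries in replicate 6. Aldh1a1 and Stra6 were inversely related (-0.71, Spearman -0.71), with WT replicate 6 highest in Aldh1a1 and lowest in Stra6 among WT libraries. Cyp26b1 and Stra6 varied together (0.61, Spearman 0.45), as did Cyp26b1 and Aldh1a2 (0.53, Spearman 0.54), and the unnumbered WT library was the highest WT library in all 3. Cyp26b1 also varied with the stromal sum (0.74, Spearman 0.81), the oocyte sum (0.71, Spearman 0.73) and the surface epithelium sum (0.66, Spearman 0.50). With the theca sum it varied inversely (-0.72, Spearman -0.66). Aldh1a2 was similar for the stromal (0.62), surface epithelium (0.63) and theca (-0.66) sums, but not for the oocyte sum (0.29). Crabp2 varied with Cyp26b1 (0.46, Spearman 0.64) and inversely with the low hepatocyte sum (-0.85, Spearman -0.71). The latter was the correlation farthest from 0 of all pairs of a gene and a marker list, and that sum was at most 10.6 FPKM. WT replicate 3 and CKO replicate 3 each had the lowest Crabp2 and the highest hepatocyte sum of their group. These values are descriptions over shared libraries.

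**Figure D5:**
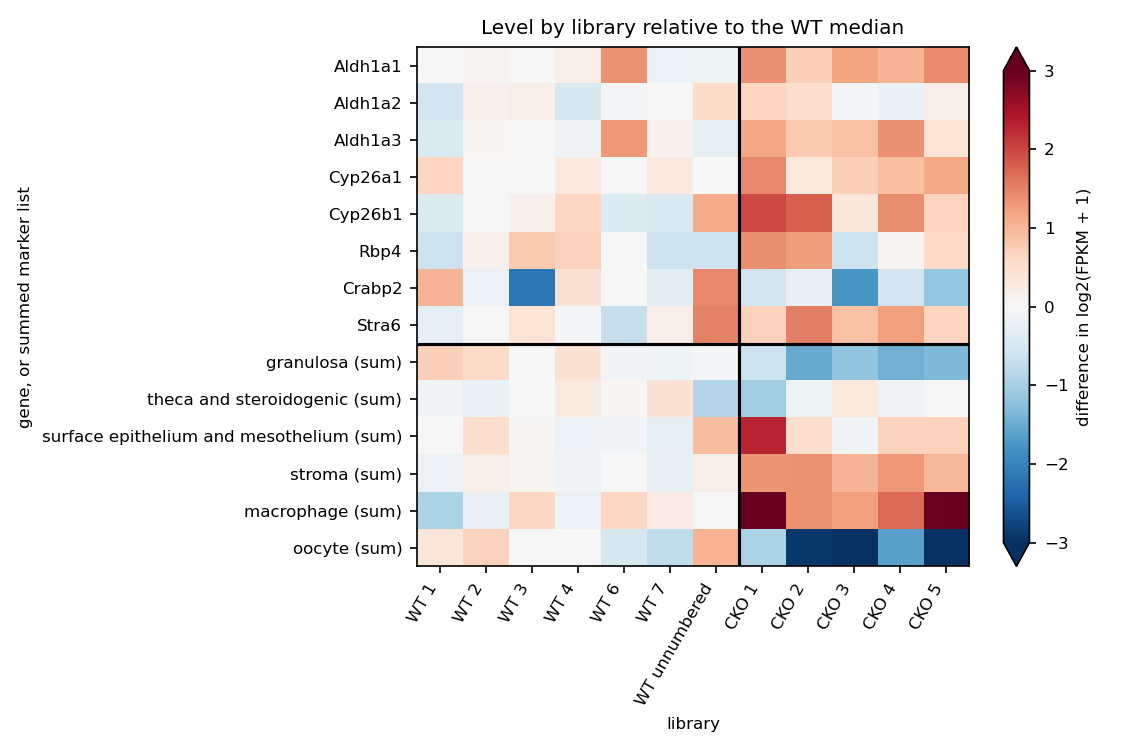
Difference in log2(FPKM + 1) from the WT median (colour, red higher and blue lower, limited to 3 in either direction) for 8 of the 9 genes and for the summed FPKM of 6 marker lists (y axis) in each library (x axis, WT left of the vertical line); Crabp1, listed at 0 in 11 libraries, is left out. CKO replicates 1 and 5 have the highest macrophage sums, and CKO replicate 1 the highest surface epithelium sum.

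For each gene tested, the 3 established genes with the most similar variation within genotypes were taken. They are the top of a search over the genes tested on only 12 libraries. High values arise from such a search alone, and a cell source was not tested. Aldh1a1 was most like Itgax, the CD11c integrin of myeloid cells (Pearson 0.95, Spearman 0.90, 12 libraries), followed by Fgr, a myeloid kinase (0.93), and Zcchc16 (0.91). Without the 2 libraries farthest from their mean in Aldh1a1, WT replicate 6 and CKO replicate 2, the correlations were 0.84 with Itgax, 0.61 with Fgr and 0.76 with Zcchc16. With the macrophage sum Aldh1a1 gave 0.48 (Spearman 0.43). Itgax itself rose, from 0.807 to 3.10 FPKM in the means (log2 fold change 1.30, limma adjusted p = 0.0149). Aldh1a3 was most like Pld4 (0.89), Lcp2 (0.89) and Siglece (0.88), all expressed by leukocytes, and without WT replicates 1 and 6 these correlations were 0.57, 0.57 and 0.57. None of these 3 genes was called, and with the macrophage sum Aldh1a3 gave 0.27 (Spearman 0.24). Cyp26b1 was most like Vsig10l (0.90), Sorcs2 (0.89) and Ppfibp2 (0.88), and Aldh1a2 like Erp44, Ppp2r2b and Sectm1b (0.89, 0.89 and 0.87). Stra6 was most like Cacna1c, a calcium channel (0.95), Lmcd1 (0.92, or 0.59 without WT replicate 6 and the unnumbered WT library) and Tmem72 (0.90). Crabp2 was most like Wfdc10 (0.97), Zfp451 (0.91) and Dync2li1 (0.91), and Rbp4, at its low level, like Adra1b, H2-T9 and Cenpp (0.90, 0.85 and 0.84).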

How the data were processed

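Per the labels, polyadenylated RNA was sequenced and the authors aligned reads to mm10 with TopHat2 2.0.13 and computed FPKM with Cufflinks 2.2.1; for annotation, scaling and strand the sources used here give no statement. That deposited table also holds the authors' Cuffdiff log2 fold changes, p-values and q-values, whose sign is CKO over WT in 99.9% of genes checked. Depth is not given, and 0 can be a failed estimate, so genes at 0 in several libraries are given by library. FPKM were analysed as log2(FPKM + 1), which understates changes of low genes, with R 4.3.3 and limma 3.58.1 (trended, genotype only, two-sided, 13168 genes with 1 FPKM in at least 5 libraries, Benjamini-Hochberg). Checked on simulated data for these 13168 genes, the fit called 78% of those with a true log2 change of 1. All of the 9 genes but Crabp1 were also compared singly by exact permutation, and these 8 p-values are unadjusted. Positions are from GENCODE M21, promoters from RefSeq.

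The genes and lists were chosen with earlier results of these data known. Named were all 9 genes, up to 4 called genes of each pathway list (the one with the smallest p where none was called), the 3 genes most alike and the 2 leading genes of each marker list. The lists cover 6 pathway roles and 9 cell types, and 1 gene left out of them is not reported here. Alternatives covered the pseudocount, filter, scaling, array weights, left-out libraries and a replicate block. Those without WT replicate 6 and the unnumbered WT library together, and the exact tests without each library, were chosen after seeing the data.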

Additional observations from a re-analysis of the deposited data

Results flagged for a closer look

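In 10 of 43 gene and genotype combinations examined, 1 library lay far from the rest of its group. A rate of about 1 in 20 would hold for independent normal values. These genes share the same libraries and some are at 0 in most, so 10 of 43 cannot be set against that rate. WT replicate 6 was far above the other WT libraries in Aldh1a1 (1419.8 FPKM), Aldh1a3 (11.97 FPKM) and Aldh1a7 (7.04 FPKM). The unnumbered WT library was far above the others in Stra6 (12.3 FPKM). WT replicate 1 stood apart in Cyp26a1 (0.572 FPKM), a value of 2.01 steps. Among CKO libraries, replicate 1 stood apart in Rarb (4.61 FPKM) and Tgm2 (211 FPKM), replicate 2 in Nrip1 (31.4 FPKM) and Crabp1 (0.822 FPKM, the others listed at 0), and replicate 3 in Adh7 (62.9 FPKM).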

How the results depend on the processing

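Refits under 15 to 24 alternatives changed the sign of no log2 fold change, among the 7 genes tested and the further pathway genes whose log2 fold changes are printed. Other named genes were not refitted. The pseudocount, filter and scaling alternatives left 3 of the 9 genes called higher, with Aldh1a3 lost and Cyp26a1 gained without the filter. Leaving out each library in turn gave 1 to 3 of these genes higher and 0 to 1 lower (Crabp2, without WT replicate 3), 869 to 1193 genes higher and 732 to 1091 lower over all genes. Without CKO replicates 1 and 5, 0 of these genes were called higher, and 671 genes over all were higher. Without CKO replicates 2 and 3, which had the highest oviduct sums, 2 of these genes and 891 genes over all were higher. The calls of Aldh1a3 (limma, adjusted p = 0.101), Rdh1 (0.0644) and Meis2 (0.0723) were lost in that fit, and Stra6 was at 0.236. WT and CKO samples with the same replicate number, 1 to 4, correlated at -0.071 to 0.09 in their deviations from the group means. None of these CKO samples correlated best with its own number, so the numbers were not taken as pairs. CKO replicate 5 was not checked in this way, because the WT library left for that number was analysed without it. With the replicate number as a block, 756 genes were higher and 631 lower, and the count of these genes called higher was again 3, with Stra6 gained (adjusted p = 0.0237) and Cyp26b1 lost (0.0577). The exact permutation call was lost for Stra6 in 8 and for Aldh1a3 in 1 of the 12 tests without 1 library. Rbp4, Crabp2 and Adh7 have no value in those alternatives where they did not pass the filter. Values of Cyp26a1, Rbp4 and Crabp1 rest on few fragments.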
